A study of Mus musculus with 3 samples.

Results

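Pericytes and smooth muscle cells, together the mural cells that wrap blood vessels, made up 89 of the 16838 cells that passed the filters in stromal vascular preparations of mouse inguinal white fat, or 0.529%. They were chosen by a gate on single-cell RNA counts. A barcode needed at least 500 detected genes, at most 15% of its unique molecular identifiers (UMIs, each marking 1 captured RNA molecule) from mitochondrial genes, a sum of at least 5 UMIs of Rgs5, Acta2, Myh11, Notch3 and Kcnj8, no UMI of the leukocyte gene Ptprc, and at most 1 UMI of the endothelial genes Pecam1 and Cdh5. Within this gate a cell with at least 1 Myh11 UMI and at least 5 Acta2 UMIs was called a smooth muscle cell, which gave 42 cells, and the other 47 were called pericytes. The measured values of these genes therefore chose the cells and their division, and the levels of the genes in these groups are given as a description.

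Pericytes sit within the basement membrane of capillaries, where they contact endothelial cells. They are held there through PDGF-BB signalling to their receptor PDGFRβ and respond to Notch ligands through NOTCH3. Vascular smooth muscle cells surround arterioles and larger vessels and contract through smooth muscle actin and myosin, under the control of sympathetic nerves, circulating hormones and endothelial signals. In white fat both cell types belong to the stromal vascular fraction, the cells that remain once intact adipocytes are removed, and some mural cells of fat have been described as precursors of adipocytes.

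There were 3 libraries, 1 for each treatment, made with the 10x Chromium 3' v3 chemistry from cells freed with a Miltenyi adipose tissue dissociation kit. The cold library came from C57BL/6 mice kept at 4 C for 3 days. The CL library came from C57BL/6 mice given CL 316,243, which activates the β3-adrenergic receptor selectively, by intraperitoneal injection over 3 days (1 mg/kg). The saline library came from saline-treated C57BL/6 mice. The number of animals behind each library, their age and sex, and whether the cold mice were injected are not given in the sources used here. With 1 library per treatment no difference could be set against the spread between animals, so no test was run. Intervals are exact 95% intervals that cover counting error only, and they are too narrow wherever a gene's UMIs come mostly from a few cells.

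The cold, CL and saline libraries held 5050, 7943 and 7674 barcodes, of which 3862, 6705 and 6271 passed, with median UMIs per passing cell of 3624.5, 3847 and 3242. Pairs of libraries shared 9 to 14 barcode sequences, and no mural cell carried a shared one. The mural cells had medians of 3067, 2067 and 3654 UMIs and of 7.77%, 8.02% and 11.5% mitochondrial UMIs in cold, CL and saline, against 6.49%, 4.11% and 5.67% in all passing cells. Mitochondrial content differed most among smooth muscle cells, with medians of 5.97%, 10.5% and 12.5%, and 0, 6 and 22 smooth muscle cells lay above 10%. A further 11, 9 and 19 barcodes met the gene criteria but exceeded the limit of 15%, and 5, 6 and 16 of them had the smooth muscle profile.

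Few cells lay exactly at the edge of the gate, and more lay near it. The summed UMIs of the 5 genes had medians of 21 in cold, 20 in CL and 35 in saline cells, with lowest values of 6, 5 and 7 and highest values of 80, 329 and 165. Only 1 cell, from the CL library, had the minimum sum of 5, and 2 cold, 1 CL and 6 saline barcodes fell just outside with a sum of 4. A sum of 6 to 9 was found in 4 cold, 4 CL and 4 saline cells. Outside the gate, 5 cold, 5 CL and 4 saline barcodes had a sum of 3. Near the division between the subtypes, 1 cold, 2 CL and 3 saline smooth muscle cells had 5 or 6 Acta2 UMIs, and 0, 2 and 2 pericytes had Myh11 together with 3 or 4 Acta2 UMIs. A larger uncertainty lay with barcodes that had the mural sum but at least 2 Pecam1 and Cdh5 UMIs, which the gate left out. There were 26, 32 and 28 of these mixed barcodes in cold, CL and saline, with medians of 9744.5, 5648 and 6157 UMIs, so they held more RNA than the mural cells. A doublet caller marked none of the 89 cells, but it marked only 4 barcodes in the whole cold library and so did not work there.

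Each gate gene lies in an annotated locus of the mm10 genome. Rgs5, which codes for a regulator that shortens G protein signals, lies on chromosome 1 at 169655501 to 169695813 on the plus strand. Acta2, smooth muscle actin, lies on chromosome 19 at 34241090 to 34255590, and Myh11, smooth muscle myosin heavy chain, on chromosome 16 at 14194535 to 14291372, both on the minus strand. Notch3, the Notch receptor of mural cells, lies on chromosome 17 at 32120820 to 32166852, and Kcnj8, the pore subunit Kir6.1 of the vascular ATP-sensitive potassium channel, on chromosome 6 at 142564837 to 142571614, also both on the minus strand.

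Rgs5 was found in 17 of the 42 smooth muscle cells and in 46 of the 47 pericytes. Among smooth muscle cells the median Rgs5 count was 16 in cold, 1 in CL and 0 in saline, with 2 of 3, 6 of 10 and 9 of 29 cells holding an Rgs5 UMI. In the cold pericytes Rgs5 counts per cell ran from 1 to 46 with a median of 14, in the CL pericytes from 0 to 32 with a median of 4, and in the saline pericytes from 4 to 72 with a median of 11.5. Pericytes of the 3 libraries thus overlapped in Rgs5, with the CL cells lower. Acta2 in smooth muscle cells ran from 6 to 32 UMIs in cold (median 11), from 6 to 255 in CL (median 15) and from 5 to 120 in saline (median 25). Thus most saline smooth muscle cells had high Acta2 and no detected Rgs5, as the plot of Rgs5 against Acta2 by cell shows. In contrast, 8 of the 13 cold and CL smooth muscle cells had UMIs of both genes. These 8 had 6 to 15 Acta2 UMIs, below the saline median of 25.

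**Figure D1:**
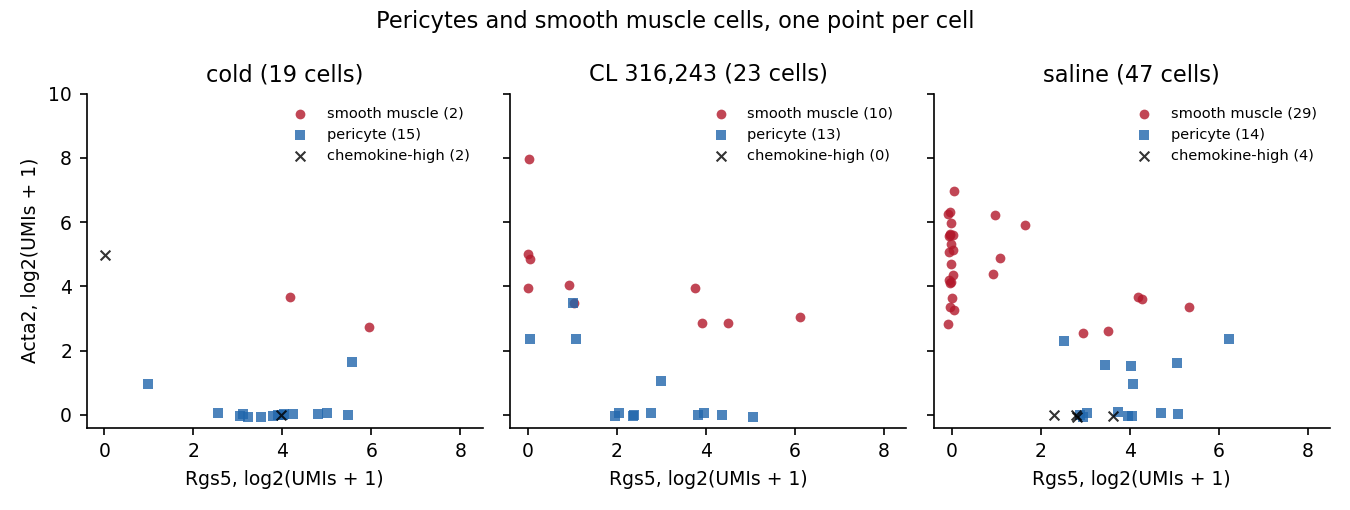
Each point is 1 cell, with Rgs5 on the horizontal and Acta2 on the vertical axis, both as log2(UMIs + 1), in the cold (19 cells), CL (23 cells) and saline (47 cells) libraries. Red circles are smooth muscle cells, blue squares pericytes and black crosses the 6 chemokine-high barcodes described further on. Saline smooth muscle cells lie mostly at the left edge, with no Rgs5.

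Several mural genes that the gate did not use were found far more often in these cells than in leukocytes. Pdgfrb, the PDGF-BB receptor, was found in 69.0% of the smooth muscle cells and 78.7% of the pericytes, against 1.18% of Ptprc-positive cells, which should lack it and which had median depths of 3268, 3782 and 2897 UMIs in cold, CL and saline (3067, 2067 and 3654 in mural cells). Abcc9, which codes for the regulatory subunit SUR2 that pairs with Kir6.1, was found in 11.9% of smooth muscle cells, 68.1% of pericytes and 0.345% of Ptprc-positive cells. Kcnj8 itself, which the gate did use, was found in 4.76%, 55.3% and 0.177%. The actin-binding protein gene Tagln had a UMI in all 42 smooth muscle cells, in 38.3% of pericytes and in 0.951% of Ptprc-positive cells. Myocd, a cofactor of serum response factor that drives smooth muscle genes, was found in 13 smooth muscle cells and in no pericyte. The shares in the matching subtype were all above those in the Ptprc-positive cells.

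Depth differed between cells, so each cell with enough RNA was also thinned to 1500 UMIs, which left 39 smooth muscle cells and 38 pericytes. Rgs5 was then detected in 30.8% of smooth muscle cells and 94.7% of pericytes, Kcnj8 in 2.56% and 47.4%, Abcc9 in 5.13% and 60.5%, Tagln in 94.9% and 34.2%, and Pdgfrb in 38.5% and 71.1%. The order of the subtypes was the same as without thinning for these 5 genes.

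Compared with all other passing cells, the mural cells were marked by the contractile genes first and the signalling genes of pericytes second. Because the gate used 5 genes of the same cells, this contrast is a description. Levels here are counts per 1000000 (CPM) of UMIs summed over cells, and ratios are log2 of CPM in mural cells over CPM in the rest. Of 1580 genes with at least 30 UMIs in mural cells, 30.6% were at least 2-fold higher and 7.72% at least 2-fold lower in mural cells. A list is described over its members with at least 10 UMIs, here in mural cells and in later comparisons in either group, beside all genes with the same minimum. The 25 genes of the contractile list that met it were all higher, with a median of 6.66, as were the 25 of 28 pericyte genes that met it, with a median of 5.54. Of all such genes 64.6% were higher, with a median of 0.31.

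Beyond the gate genes, tropomyosin Tpm2 and leiomodin Lmod1, both of the actin filament, each reached 8.02, Tagln 7.94 and the myosin light chain gene Myl9 6.88. Myosin light chain kinase (Mylk) stood at 6.66, and Ppp1r14a, whose product CPI-17 inhibits myosin phosphatase, at 6.63. Among signalling genes Rgs4, a relative of Rgs5, reached 7.24, and Gucy1a3, a subunit of the nitric oxide receptor guanylate cyclase, 6.07. Cspg4, which codes for the pericyte proteoglycan NG2, stood at 6.59, Abcc9 at 5.17 and Pdgfrb at 4.09. Desmin (Des), the intermediate filament protein of muscle, stood at 5.78, and Ndufa4l2, a mitochondrial protein gene often used as a pericyte marker, at 5.91.

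The smooth muscle cells had more of nearly every contractile gene than the pericytes, and the pericytes more of Kcnj8 and Abcc9, the genes of the ATP-sensitive potassium channel, and of several secreted proteins. The split used Acta2 and Myh11 of the same cells, so these ratios, given as log2 of CPM in smooth muscle cells over CPM in pericytes, are a description too. Unless stated they keep the chemokine-high barcodes described further on, most of which fell on the pericyte side. Of 923 genes with at least 30 UMIs on the higher side, 22.6% were at least 2-fold higher and 10.1% at least 2-fold lower in smooth muscle cells. Of all genes with at least 10 UMIs 53.1% were higher and 46.9% lower by any size, with a median of 0.06, and the 25 contractile genes were higher, with a median of 2.38.

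Within the contractile list, Acta2 had 1420 UMIs in smooth muscle cells and 37 in pericytes (4.83, interval 4.36 to 5.35), and Myh11 819 and 66 (3.20, interval 2.84 to 3.59). Tagln had 1004 and 57 UMIs (3.71, interval 3.32 to 4.12), Tpm2 983 and 50 (3.87), Myl9 507 and 59 (2.67, interval 2.28 to 3.09), and Lmod1 137 and 10 (3.35). The kinase that switches smooth muscle myosin on differed less, since Mylk had 306 and 77 UMIs (1.56). Mustn1, a small protein gene of muscle, had 146 and 4 UMIs (4.76, interval 3.37 to 6.66), and it was detected in 76.2% of smooth muscle cells and 8.51% of pericytes. By library its ratio was 2.79 in cold, 3.69 in CL and 4.56 in saline. The cold values rest on 3 smooth muscle cells.

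Calponin Cnn1, which marks mature contractile cells, had 52 UMIs in smooth muscle cells and 1 in pericytes (5.27, interval 2.73 to 10.6), and was detected in 21.4% of smooth muscle cells. Of the 52 UMIs, 32 were in 1 CL cell of 10250 UMIs, so the interval is too narrow. The 1 UMI on the pericyte side was in a chemokine-high barcode. Pln, phospholamban, which restrains calcium uptake into the sarcoplasmic reticulum, had 49 and 2, and Pcp4l1, a small calmodulin-related protein gene, 89 and 4 (4.05). Jph2, which couples the plasma membrane to the sarcoplasmic reticulum, had 44 and 2 UMIs (4.03). Rbpms2, an RNA-binding protein gene of smooth muscle, had 47 and 2 (4.13). Calcium storage and excitation genes were thus mostly on the smooth muscle side.

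The ion channels divided by family. Of 19 measured ion channel and calcium genes, 15 were higher in smooth muscle cells, with a median of 1.27. The voltage-gated potassium channel subunits Kcna5 (25 and 2 UMIs) and Kcnab1 (33 and 1) and the T-type calcium channel Cacna1h (23 and 1) were among those higher. The ATP-sensitive channel ran the other way, with 6 Kcnj8 UMIs in smooth muscle cells and 77 in pericytes (−4.11, interval −5.60 to −2.92) and 12 and 96 Abcc9 UMIs (−3.43, interval −4.43 to −2.56). Of these genes Kcnj8 was part of the gate and Abcc9 was not.

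Of the 24 measured genes of the pericyte list, 19 were lower in smooth muscle cells, with a median of −0.88. Rgs5 had 290 UMIs in smooth muscle cells and 689 in pericytes (−1.68, interval −1.88 to −1.48). With the chemokine-high barcodes kept, its ratio differed between libraries, with −0.07 in cold, −0.32 in CL and −2.80 in saline. Without them the cold ratio changed sign. The 2 cold smooth muscle cells left stood at 8907 CPM. Cold pericytes stood at 6057 CPM with at most 10% mitochondrial UMIs and at 7650 CPM above 10%. Pdgfrb had 65 and 127 UMIs (−1.40), the metalloreductase gene Steap4 18 and 101 (−2.92), and Higd1b, a pericyte-enriched gene, 15 and 40 (−1.84). Vitronectin (Vtn), an adhesive plasma and matrix protein, had 11 and 41 (−2.33), and Agtr1a, the angiotensin II receptor, 6 and 26 (−2.54). Some genes on that list differed less with the chemokine-high barcodes kept. In saline those barcodes held the pericyte list at 1510.5 CPM, against 21062 CPM in the other saline pericytes. Keeping them among the pericytes raises the ratio of a gene that they lack. Cspg4 had 43 and 37 UMIs (−0.21), Aspn stood at −0.02 and the guanylate cyclase subunit Gucy1b3 at −0.36.

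Outside the lists the pericytes had more Postn, the matricellular protein periostin, with 58 UMIs in smooth muscle cells and 303 in pericytes (−2.81, interval −3.25 to −2.41). Angptl2, an angiopoietin-like secreted protein, had 15 and 93 (−3.06), and Cygb, cytoglobin, a haem protein that handles nitric oxide in vessel walls, 29 and 128 (−2.57). Cxcl12, the chemokine that binds CXCR4, had 17 and 78 (−2.63), and the fatty acid transporter gene Cd36 29 and 97 (−2.17). Cd300lg, an endothelial gene, had 1 and 30 UMIs (−5.34), the lowest ratio among the named genes. Summed over the 16-gene endothelial list, smooth muscle cells held 578, 542 and 309 CPM in cold, CL and saline, pericytes 1777, 2001 and 1268 CPM, and the endothelial gate 12635, 12196 and 10995 CPM. The part of endothelial RNA in the pericyte values was not tested.

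Notch genes were spread over both subtypes. Notch3 had 129 UMIs in smooth muscle cells and 68 in pericytes (0.49, interval 0.06 to 0.94), and 0.08 without the chemokine-high barcodes described below. Hey2, a transcription factor gene that Notch induces (12 and 0 UMIs), and Nrip2, a nuclear receptor cofactor gene (50 and 6, or 2.63), were on the smooth muscle side, while Heyl, another Notch target (14 and 16, or −0.62), was not. Among receptors for vasoactive signals, 12 of 15 measured genes were higher in smooth muscle cells, with a median of 0.73. Ednra, the endothelin receptor, had 24 and 14 UMIs (0.35). The mitochondrial respiration genes were also mostly higher, 26 of 30, with a median of 0.64.

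**Figure D2:**
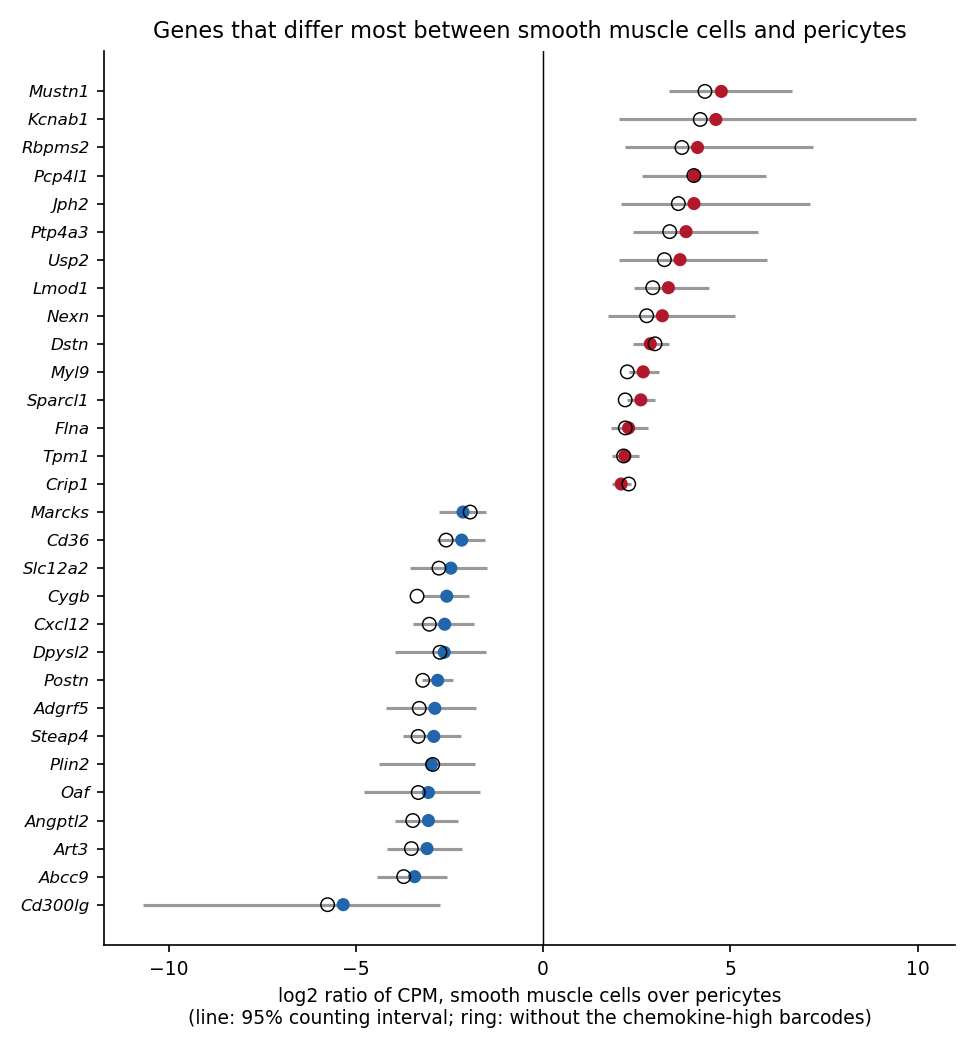
The horizontal axis gives log2 of CPM in smooth muscle cells over CPM in pericytes for 15 genes on either side, ranked by the interval bound nearer to 0, with a line for the 95% counting interval and a ring for the value without the chemokine-high barcodes. Of the plotted genes Mustn1 is farthest to the smooth muscle side at 4.76 and Cd300lg farthest to the pericyte side at −5.34.

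Promoter sequence was compared between the subtypes' genes with 2 motifs, and a further motif, the cAMP response element TGACGTCA, was also searched. The CArG box, which binds serum response factor, was searched as CC, then 6 bases of A or T, then GG, and the motif of the Notch effector RBPJ as TGGGAA, both on either strand, in RefSeq windows of 300 bases around gene starts. The Myl9, Acta2 and Abcc9 stretches of 250 bases before the start (RefSeq, GRCm38.p6) are printed because they show the motif of a contractile gene beside those of a smooth muscle and a pericyte gene. Capitals mark the motif, a CArG box in Myl9 and TGGGAA in Acta2 and Abcc9. Myl9 lies at chr2:156775214-156775463 (plus strand), Acta2 at chr19:34255374-34255623 (minus strand) and Abcc9 at chr6:142702275-142702524 (minus strand), each written 5′ to 3′ on the strand of the gene.
Myl9: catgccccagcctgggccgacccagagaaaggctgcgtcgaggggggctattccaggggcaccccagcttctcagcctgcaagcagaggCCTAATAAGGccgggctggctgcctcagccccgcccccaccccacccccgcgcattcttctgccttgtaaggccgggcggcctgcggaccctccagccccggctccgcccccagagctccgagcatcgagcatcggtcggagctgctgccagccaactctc
Acta2: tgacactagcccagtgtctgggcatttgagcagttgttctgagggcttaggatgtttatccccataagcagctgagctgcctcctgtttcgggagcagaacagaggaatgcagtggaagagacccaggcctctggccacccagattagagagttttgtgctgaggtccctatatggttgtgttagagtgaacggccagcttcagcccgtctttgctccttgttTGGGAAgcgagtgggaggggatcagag
Abcc9: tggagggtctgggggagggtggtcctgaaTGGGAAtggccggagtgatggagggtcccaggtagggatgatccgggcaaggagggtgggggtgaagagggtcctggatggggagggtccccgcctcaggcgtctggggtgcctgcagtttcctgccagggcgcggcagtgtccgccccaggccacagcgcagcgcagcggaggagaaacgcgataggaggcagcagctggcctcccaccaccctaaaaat

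The CArG box began 161 bases before the Myl9 start, and TGGGAA 27 bases before the Acta2 start and 221 before the Abcc9 start. A window was found for 20 of the 25 contractile genes and 19 of the 28 pericyte genes. The CArG box was in 2 of 24 contractile windows (8.33%), those of Myl9 and Myl6, in 0 of 26 pericyte windows and in 1.63% of all 32851 windows. It was not particular to contractile genes, since 5 of 25 windows of the immediate early list described further on held it (20%). All of these were windows of Egr2 and Zfp36. Some genes had more than 1 window, so the percentages count windows and not genes. TGACGTCA was in 1 of 24 contractile windows, 1 of 26 pericyte windows and 1.79% of all windows. TGGGAA was in 11 of 26 pericyte windows (42.3%), 6 of 24 contractile windows (25%) and 25.6% of all windows. The end of a CArG box can share letters with TGGGAA, but each printed sequence held only 1 of the motifs as exact matches. Near matches were not counted. The Acta2 stretch holds ccctatatgg and ccttgttTGG, each 1 base away from the CArG pattern, and the latter shares letters with its TGGGAA. The search therefore does not show that Acta2 lacks a CArG box, and a match describes these letters only.

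A group of 6 barcodes inside the gate went against its label. They held at least 10 UMIs of the lymphoid chemokines Cxcl13, Ccl19 and Ccl21a, and this cutoff was set after their values were seen. Of these, 5 fell on the pericyte side, 1 from the cold library with 175 Cxcl13 UMIs and 4 from the saline library with 232, 68, 78 and 548. These 5 had Rgs5 but no UMI of Acta2, Notch3, Pdgfrb, Tagln or Fabp4, and 3 of the saline ones held 8, 5 and 6 Myh11 UMIs. The 1 on the smooth muscle side, from the cold library, had 75 Ccl21a and 11 Ccl19 UMIs with 32 of Acta2 and none of Rgs5. The CL library had none.

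Several genes were found almost wholly in these barcodes. Cxcl13, which attracts B cells, had 1102 UMIs in the 6 barcodes and 1 in the other 83 cells, and Cr2, a complement receptor, had 78 and 0. The extracellular chaperone clusterin (Clu) had 724 and 13, the adhesion molecule Vcam1 72 and 2, Enpp2, the enzyme autotaxin that makes lysophosphatidic acid, 147 and 16. The bridging protein gene Mfge8 was shared, with 379 and 306. Clu had stood among the genes highest in mural cells over the rest, at 5.45, and was at −0.16 without the 6. Expression levels within 1 subtype and library are therefore given without these 6 barcodes, while counts of cells keep them unless stated. This leaves 2, 10 and 29 smooth muscle cells and 15, 13 and 14 pericytes in cold, CL and saline. The Rgs5 and Acta2 counts per cell and the subtype ratios by library given above are exceptions, which keep these barcodes unless stated.

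At the limit of 15% mitochondrial UMIs, the libraries differed more in their number of smooth muscle cells than in their number of pericytes. Mural cells were 19 of 3862 cold cells (0.492%, interval 0.296 to 0.767), 23 of 6705 CL cells (0.343%, interval 0.218 to 0.514) and 47 of 6271 saline cells (0.749%, interval 0.551 to 0.995). Smooth muscle cells made up 3 of 19 in cold (15.8%, interval 3.38 to 39.6), 10 of 23 in CL (43.5%, interval 23.2 to 65.5) and 29 of 47 in saline (61.7%, interval 46.4 to 75.5). The cold and saline intervals did not overlap. After thinning to 1500 UMIs the shares were 6.67%, 31.6% and 51.2%, in the same order.

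Set against the 241, 226 and 264 cells of an endothelial gate, the number of smooth muscle cells differed between libraries and that of pericytes hardly did. Smooth muscle cells numbered 1.24 (interval 0.255 to 3.68), 4.42 (2.09 to 8.29) and 11 (7.21 to 16.1) per 100 endothelial cells in cold, CL and saline. There were 6.64, 5.75 and 6.82 pericytes per 100 endothelial cells, with intervals of 3.73 to 11, 3.02 to 10.0 and 3.98 to 11. The mixed barcodes numbered 10.8, 14.2 and 10.6 per 100, with overlapping intervals. Treatment and cell preparation cannot be told apart with 1 library each. Without the 6 chemokine-high barcodes there were 0.830, 4.42 and 11 smooth muscle cells and 6.22, 5.75 and 5.30 pericytes per 100 endothelial cells.

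The mitochondrial limit bears on these counts directly. With at most 10% in place of 15%, mural cells were 0.351%, 0.261% and 0.301% of cold, CL and saline cells. Smooth muscle cells were then 3 of 12 (25%), 4 of 17 (23.5%) and 7 of 17 (41.2%) mural cells, with overlapping intervals, and cold was no longer below CL. Per 100 endothelial cells there were 1.38, 1.94 and 2.92 smooth muscle cells and 4.15, 6.31 and 4.17 pericytes, again with overlapping intervals.

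**Figure D3:**
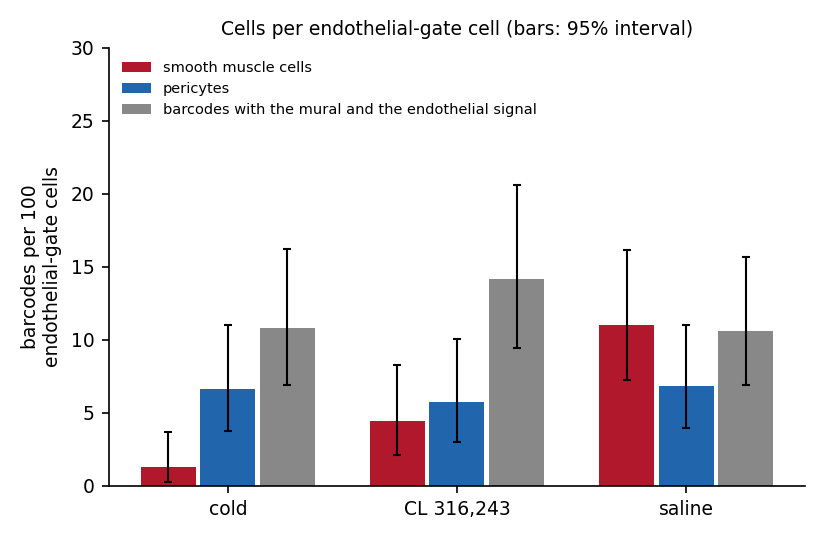
Smooth muscle cells, pericytes and mixed mural and endothelial barcodes per 100 endothelial-gate cells in the cold, CL and saline libraries, with 95% counting intervals as bars. Pericytes lie between 5.75 and 6.82 in the 3 libraries, while smooth muscle cells stand at 1.24, 4.42 and 11.

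The mix of subtypes differed between libraries, and values over all mural cells contain that difference. In cold over saline, 4.64% of 883 genes were at least 2-fold higher and 25.5% at least 2-fold lower. Of the 24 measured contractile genes 23 were lower (median −1.74), where 60.9% of all genes were lower by any size, and of 23 measured pericyte genes 18 were higher (median 1.25), where 39.1% of all genes were. In CL over saline 4.98% of 884 genes were at least 2-fold higher and 20.7% lower, and 21 of 23 pericyte genes were higher (median 1.04), where 38.7% of all genes were. Within smooth muscle cells alone, without the chemokine-high barcode, the contractile list had a median of −1.14 in cold over saline (16 of 24 members lower) and the pericyte list 0.99 (12 of 15 higher), on 2 cold cells. Of all genes in that comparison 26.4% were lower and 40.4% higher by any size, and the others had too few UMIs to give a direction. Within pericytes alone the same lists had medians of −0.18 and 0.38. The values that follow are therefore within a subtype. The cold and CL values are set against the same saline library and are not independent of each other.

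In cold pericytes most genes differed little from saline pericytes. Of 125 genes with at least 30 UMIs on the higher side, 2.4% were at least 2-fold higher and 4.8% at least 2-fold lower in cold pericytes. Activity-induced transcription factors were among the genes that stood out on the lower side. Immediate early genes, which cells switch on within minutes of stimulation, were lower for 15 of 15 measured members, with a median log2 ratio of −1.0, where 47.8% of all genes were lower by any size and their median was 0.03. Egr1 had 72 UMIs (1777 CPM) in 9 of 15 cold pericytes and 165 UMIs (5811 CPM) in 14 of 14 saline pericytes (−1.71, interval −2.13 to −1.30). Junb had 57 UMIs (1407 CPM) in cold and 118 UMIs (4156 CPM) in saline (−1.56, interval −2.05 to −1.09), and Fos 116 and 107 UMIs (−0.40).

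The list took 0.480% of the UMIs of the median cold pericyte (range 0 to 4.59%) and 2.44% of the median saline pericyte (range 0.878 to 4.99%), so the ranges overlapped. It was also lower in the cold endothelial gate, at 11987 CPM, than in the saline endothelial gate, at 19860 CPM. Heat shock genes were lower for 10 of 11 members (median −0.49), and all 5 measured glucocorticoid response genes were lower (median −1.43). The interferon response list, described further on, summed to 518 CPM in cold and 1972 CPM in saline pericytes. Its ratio was −1.99 at 10% mitochondrial UMIs or less (interval −3.02 to −1.03) and −1.80 above 10% (interval −3.25 to −0.56). Adamts4, a protease of the proteoglycan matrix, had 3 UMIs in cold pericytes and 28 in saline pericytes (−3.74, interval −6.10 to −2.04). Adamts1, a related protease, had 4 and 23 (−3.04, interval −5.03 to −1.49).

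On the higher side in cold pericytes were lipid-handling genes that the endothelial cells shared. Fabp4, the fatty acid carrier of adipocytes and capillary endothelium, had 936 UMIs in 15 of 15 cold pericytes (23100 CPM) and 393 UMIs in saline pericytes (13841 CPM). The difference lay in the cells with at most 10% mitochondrial UMIs, 8 from cold and 6 from saline, where Fabp4 stood at 27912 CPM in cold and 15071 CPM in saline (0.89, interval 0.68 to 1.11), against 12044 and 12412 CPM above 10% (−0.04, interval −0.37 to 0.29). In the endothelial gate it stood at 35179 CPM in cold and 19013 CPM in saline. Cd36 had 54 UMIs in 14 of 15 cold pericytes (1333 CPM) and 22 in saline pericytes (775 CPM). Its ratio was 0.49 at 10% or less (interval −0.40 to 1.46) and 1.20 above 10% (interval −0.19 to 2.73). Of the 10 genes of the adipocyte list only 4 were measured, and these 4 were higher (median 2.25), where 52.2% of all genes were. Its sum in the endothelial gate was 35849 CPM in cold and 19234 CPM in saline, and the part of free RNA in these values was not tested.

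Abcc9 was somewhat higher and Rgs5, a gate gene, lower in cold pericytes. Abcc9 had 45 UMIs in 12 of 15 cold pericytes (1111 CPM) and 17 UMIs in 8 of 14 saline pericytes (599 CPM), with a log2 ratio of 0.89 and an interval of 0.06 to 1.79. Kcnj8 had 28 UMIs in 10 cold pericytes and 10 UMIs in 6 saline pericytes (0.97, interval −0.11 to 2.18). Rgs5 had 265 UMIs (6540 CPM) in cold and 273 UMIs (9615 CPM) in saline (−0.56, interval −0.81 to −0.31). Periostin had 153 UMIs (3776 CPM) in cold and 73 (2571 CPM) in saline (0.55, interval 0.14 to 0.98). With at most 10% mitochondrial UMIs the ratio was 0.19 for periostin (interval −0.30 to 0.70) and 1.07 for Abcc9 (interval −0.01 to 2.31). Above 10% they stood at 1.13 (interval 0.36 to 1.93) and 0.42 (interval −1.07 to 1.96). Rgs5 was lower in cold on both sides, at −0.60 and −0.40. Sept4, a septin of the cytoskeleton, had 35 UMIs (864 CPM) in cold and 12 (423 CPM) in saline. The pericyte list as a whole did not follow, with 12 of 21 members higher, where 52.2% of all genes were, and a median of 0.38.

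The cold smooth muscle cells numbered 2 once the chemokine-high barcode was set aside, so their 158 contractile UMIs allow little. Of 587 genes compared, 8.01% were at least 2-fold higher and 25.2% lower in them than in saline smooth muscle cells. These 2 cells held 77 Rgs5 UMIs (8907 CPM), against 97 in 29 saline smooth muscle cells (749 CPM), and 17 Acta2 UMIs (1967 CPM) against 982 (7578 CPM). They had the gate's smooth muscle profile with a pericyte list at 19202 CPM, against 5834 CPM in saline smooth muscle cells and 19077 CPM in cold pericytes.

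CL pericytes had lower levels of immediate early genes than saline pericytes. Of 104 genes compared, 5.77% were at least 2-fold higher and 11.5% at least 2-fold lower in CL pericytes. Of the 16 measured matrix genes 10 were higher, with a median of 0.58, a count near the share of all genes, of which 52.7% were higher by any size with a median of 0.10. Col3a1, fibrillar collagen, had 51 UMIs (1730 CPM) in CL and 19 (669 CPM) in saline pericytes (1.37, interval 0.58 to 2.21). Col4a1, a chain of the network collagen of basement membranes, had 74 UMIs (2510 CPM) in CL and 43 (1515 CPM) in saline (0.73, interval 0.17 to 1.31). Sparc, a collagen-binding glycoprotein, had 193 UMIs (6545 CPM) in CL and 133 (4684 CPM) in saline (0.48, interval 0.16 to 0.81). All 13 CL pericytes had at most 10% mitochondrial UMIs. Against the 6 saline pericytes that did too, the ratios were smaller, with 0.55 for Col3a1 (interval −0.25 to 1.42), 0.56 for Col4a1 (interval −0.10 to 1.26) and 0.17 for Sparc (interval −0.20 to 0.55), and each interval held 0.

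Sparc and Col4a1 were also higher in other CL cells. Sparc had 122 UMIs (3150 CPM) in CL smooth muscle cells and 146 (1127 CPM) in saline smooth muscle cells (1.48, interval 1.12 to 1.84), and 4262 CPM in the CL endothelial gate against 2065 CPM in the saline endothelial gate. Col4a1 had 38 UMIs in CL and 73 in saline smooth muscle cells (0.80, interval 0.19 to 1.39), and 1074 CPM in the CL and 617 CPM in the saline endothelial gate.

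Rgs5 stood at 110 UMIs (3730 CPM) in 12 of 13 CL pericytes and 273 UMIs (9615 CPM) in 14 of 14 saline pericytes (−1.37, interval −1.70 to −1.04). Rgs5 and Kcnj8 were gate genes, so their levels are a description. Kcnj8 ran the other way, with 38 UMIs (1289 CPM) in 9 CL pericytes and 10 UMIs (352 CPM) in 6 saline pericytes (1.87, interval 0.84 to 3.04). Pdgfrb had 50 UMIs (1696 CPM) in CL and 27 (951 CPM) in saline (0.83, interval 0.13 to 1.57), and 0.52 with an interval of −0.28 to 1.39 at 10% mitochondrial UMIs or less. Gng11, a G protein gamma subunit gene, had 31 UMIs (1051 CPM) in CL and 7 (247 CPM) in saline (2.09, interval 0.88 to 3.52). Despite these genes, the pericyte list summed to 17465 CPM in CL and 21062 CPM in saline pericytes, with Rgs5 giving 110 of 515 UMIs in CL and 273 of 598 in saline.

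Immediate early genes were lower in CL pericytes for 15 of 15 measured members, with a median of −1.27, where 47.3% of all genes were lower. Egr1 had 28 UMIs (950 CPM) in 7 of 13 CL pericytes, against the 165 UMIs (5811 CPM) in saline (−2.61, interval −3.25 to −2.03). Junb had 26 UMIs (882 CPM) in CL and 118 (4156 CPM) in saline (−2.24, interval −2.91 to −1.61), and Jun 25 UMIs (848 CPM) in CL and 113 (3980 CPM) in saline (−2.23). The list took 0.592% of the median CL pericyte's UMIs (range 0 to 2.01%), against 2.44% in saline. As in cold, the endothelial gate moved the same way, with 11014 CPM in CL and 19860 CPM in saline.

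In smooth muscle cells induced genes were among those lower in CL than in saline. Of 590 genes, 3.56% were at least 2-fold higher and 26.4% at least 2-fold lower in CL smooth muscle cells. All 13 measured cAMP-response genes were lower (median −1.48), as were 18 of 21 immediate early genes (median −1.12) and 7 of 8 glucocorticoid response genes (median −1.63), where 58.5% of all genes were lower by any size and their median was −0.26. Adamts1 had 11 UMIs in 4 of 10 CL smooth muscle cells (284 CPM) and 407 UMIs in 27 of 29 saline smooth muscle cells (3141 CPM), a log2 ratio of −3.47 with an interval of −4.48 to −2.61. Cebpb, a transcription factor of inflammation and adipogenesis, had 5 UMIs (129 CPM) in CL and 208 (1605 CPM) in saline. The metallothionein genes Mt1 and Mt2, which bind zinc and are induced by stress and glucocorticoids, had 7 and 1 UMIs in CL and 180 and 69 UMIs in saline.

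The orphan nuclear receptor gene Nr4a2 had 6 UMIs (155 CPM) in CL and 194 UMIs in 22 of 29 saline smooth muscle cells (1497 CPM). Klf4, a transcription factor that opposes the contractile state, had 14 UMIs (361 CPM) in CL and 298 UMIs in 24 saline cells (2300 CPM). Crispld2, a secreted protein gene, had 10 UMIs (258 CPM) in CL and 271 UMIs in 26 saline cells (2091 CPM). The cytokine gene Il6 had 4 UMIs in CL and 63 UMIs in 14 saline cells (486 CPM). Cdkn1a, the cell cycle inhibitor p21, had 4 UMIs in CL and 182 (1405 CPM) in saline. Adamts1, Nr4a2, Klf4 and Crispld2 were thus each found in 22 to 27 of the 29 saline smooth muscle cells, not in a few alone.

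Mitochondrial content differed alongside, so the comparison was repeated on either side of 10% mitochondrial UMIs, a split chosen after seeing the data. Among smooth muscle cells with at most 10%, 4 from CL and 7 from saline, Adamts1 had 4 UMIs in CL and 96 UMIs in all 7 saline cells (−3.10, interval −5.01 to −1.70), and the cAMP-response list stood at 2756 CPM in CL and 6391 CPM in saline. Among those above 10%, 6 from CL and 22 from saline, Adamts1 had 7 and 311 UMIs (−3.62, interval −4.95 to −2.56) and the list 2803 and 9059 CPM. The immediate early list was at 10619 CPM in CL and 14757 CPM in saline below the split and at 6856 and 19978 CPM above it. For pericytes with at most 10%, 8 from cold, 13 from CL and 6 from saline, that list stood at 16506, 9292 and 34074 CPM. The differences in these lists were therefore present on both sides of the split in smooth muscle cells.

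The contractile genes themselves did not differ in a common direction between CL and saline smooth muscle cells, with 15 of 25 higher in CL, where 39.9% of all genes were, and a median of 0.42. Their sum was 54937 CPM in CL and 42398 CPM in saline, but 1 CL cell of 10250 UMIs held 1340 of the 2128 contractile UMIs in CL, 255 of its 389 Acta2 UMIs among them. That cell also held all 74 UMIs of the enteric actin gene Actg2 found in the 89 cells. Per cell, the contractile list took a median of 1.85% of UMIs in 2 cold cells, 3.31% in CL and 3.94% in saline smooth muscle cells. Of 15 ion channel and calcium genes 14 were lower in CL smooth muscle cells, with a median of −0.58.

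**Figure D4:**
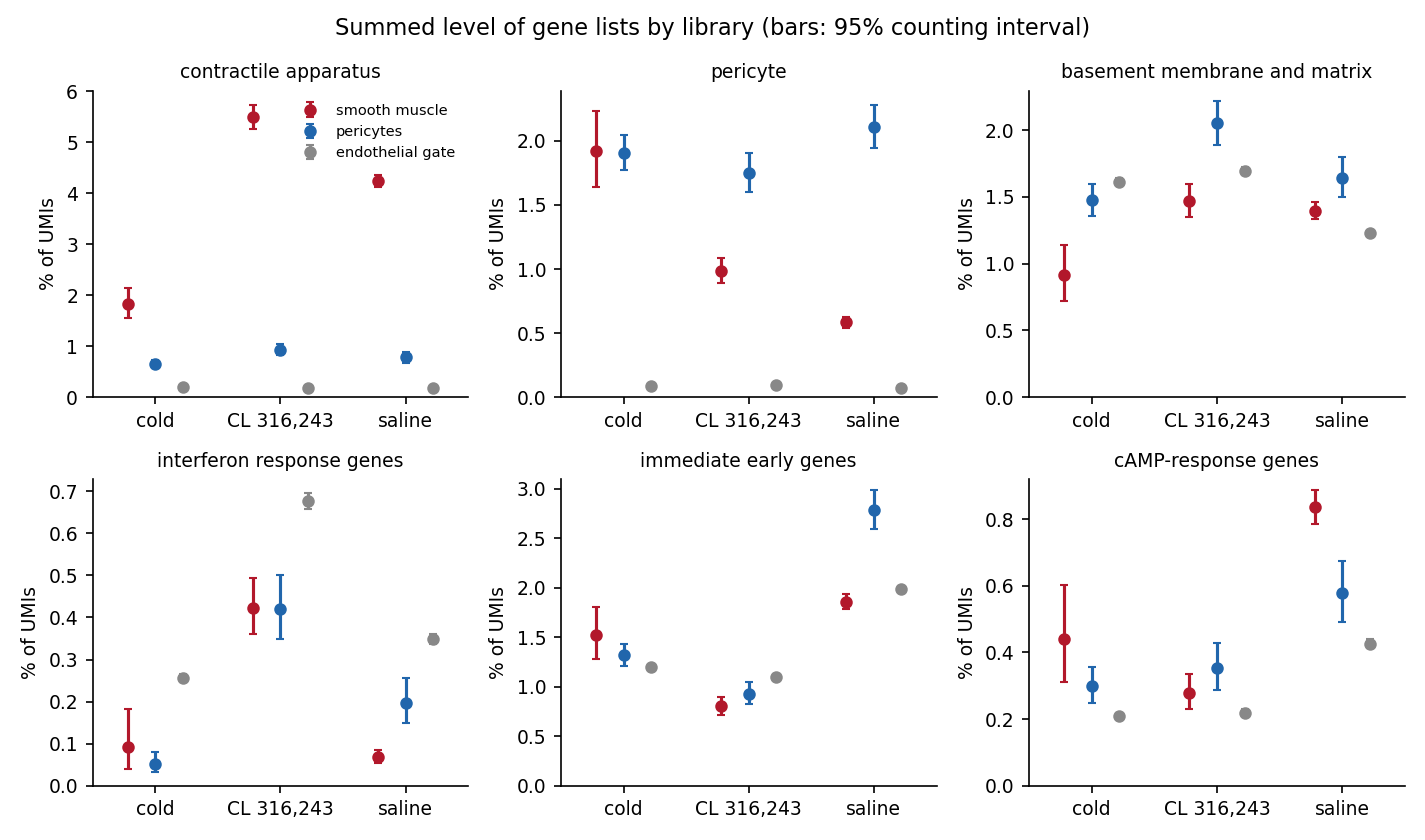
Summed level of 6 gene lists as a percentage of UMIs in the cold, CL and saline libraries, for smooth muscle cells (red), pericytes (blue) and the endothelial gate (grey), without the 6 chemokine-high barcodes and with 95% counting intervals as bars. Immediate early and cAMP-response genes are highest in saline in pericytes and in the endothelial gate, and interferon response genes are highest in CL in all 3 groups of cells.

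Interferon response genes, which cells switch on through type I or II interferon receptors, were higher in CL. Over all mural cells 12 of 13 measured members were higher in CL than in saline (median 2.0), and 12 of 13 higher than in cold (median 1.87), where 38.7% and 55% of all genes were higher by any size. In smooth muscle cells the list stood at 925 CPM in cold, 4234 CPM in CL and 679 CPM in saline, and in pericytes at 518, 4205 and 1972 CPM. Irf7, the transcription factor that amplifies the response, had 19 UMIs in 4 CL smooth muscle cells and 8 in 5 CL pericytes, against none in cold and 1 UMI in each subtype of the saline library. Ly6e, a membrane protein gene, had 28 UMIs (723 CPM) in CL and 3 (23.2 CPM) in saline smooth muscle cells. Isg15, a ubiquitin-like protein gene, had 22 UMIs in 7 CL pericytes (746 CPM), against 4 UMIs in cold and 8 UMIs in saline pericytes.

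The excess sat in few cells. Of the 288 list UMIs in CL mural cells, 202 were in 4 cells, and the median cell held 0.158% of its UMIs in the list in CL, against 0.0244% in cold and 0.0604% in saline without the chemokine-high barcodes (0.0646% in cold with them). The median CL pericyte, at 0.158%, was not above the median saline pericyte, at 0.162%. In smooth muscle cells the medians were 0.0948%, 0.141% and 0.0392%. The endothelial gate was higher in CL as well, at 6770 CPM, than in cold at 2566 CPM and saline at 3490 CPM, and the mural cells stayed below it in each library.

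**Figure D5:**
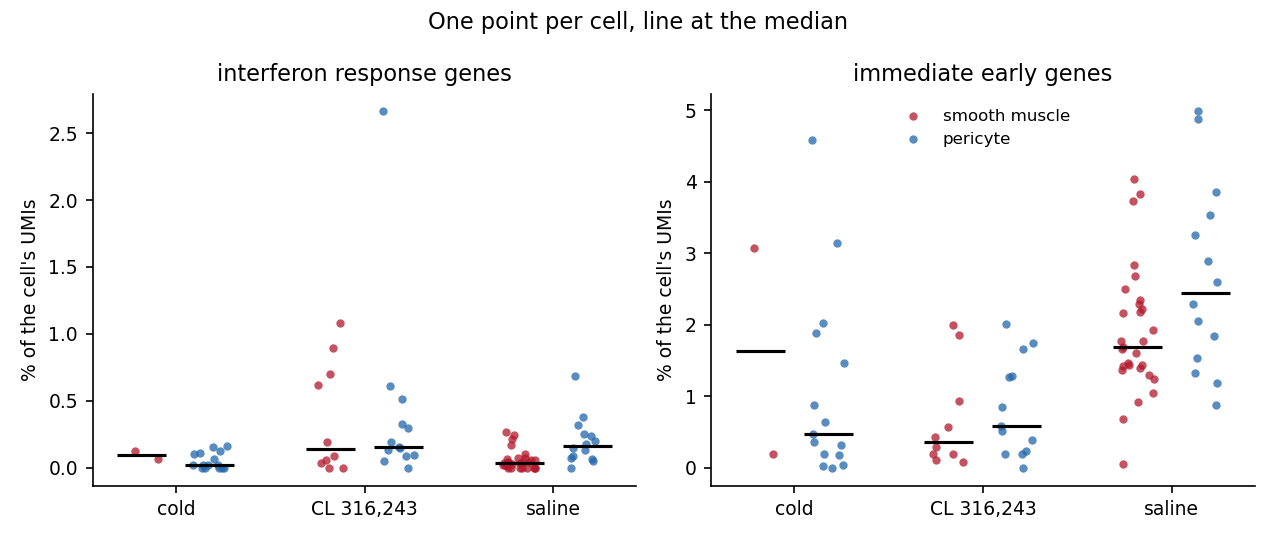
Share of each cell's UMIs in the interferon response list (left) and the immediate early list (right) in the cold, CL and saline libraries, with 1 point per cell, smooth muscle cells in red and pericytes in blue, and a line at the median. In the left panel a few CL cells stand far above the rest, and in the right panel the saline pericytes have a median of 2.44% against 0.480% in cold and 0.592% in CL.

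CL and cold were also compared with each other, which does not involve the saline library. Over all mural cells 19.3% of 296 genes were at least 2-fold higher and 5.74% at least 2-fold lower in CL, with 10 smooth muscle cells in CL and 3 in cold. In pericytes the shares were 4.65% and 5.43% of 129 genes. Matrix genes were higher in CL pericytes for 15 of 17 members, with a median of 0.37, where 49% of all genes were higher by any size. Col4a1 had 74 UMIs (2510 CPM) in CL pericytes and 54 (1333 CPM) in cold pericytes (0.91, interval 0.39 to 1.45), and Col4a2, its partner chain, 38 (1289 CPM) and 26 (642 CPM), a log2 ratio of 1.01 with an interval of 0.25 to 1.78. Fabp4 stood at 10716 CPM in CL pericytes and 23100 CPM in cold pericytes. Immediate early genes were lower in CL for 10 of 14 members (median −0.48), where 51% of all genes were lower.

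Adrb3, the β3-adrenergic receptor that CL 316,243 binds, had no UMI in the 89 cells, which allows a share of up to 3.37% of cells with a UMI and a level of up to 9.44 CPM. Adrb1, the β1 receptor gene, had 3 UMIs in smooth muscle cells and 4 in pericytes. The contractile α1 receptors Adra1a (6 and 0 UMIs) and Adra1b (10 and 1) were found mostly in smooth muscle cells. Trpv1, a heat- and capsaicin-gated channel, had 4 UMIs in smooth muscle cells and none in pericytes. At this depth no difference between treatments could be detected for these genes.

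Thermogenic and adipogenic genes were thin as well. Ucp1, the uncoupling protein of brown and beige adipocytes, had 25 UMIs in 3 cold pericytes, 21 of them in 1 barcode, and none in CL or saline mural cells. That barcode met the gate on 8 Rgs5 UMIs alone and had no UMI of Abcc9, Pdgfrb or Tagln. It held 85 Fabp4 UMIs and 16 of the endothelial list, so only the rule makes it a pericyte. Ucp1 stood at 65.2, 5.48 and 2.10 CPM in the endothelial gates of cold, CL and saline, so cells that are not adipocytes also carried it in the cold library. Ebf2, a transcription factor of beige adipocyte precursors, had 32 UMIs in smooth muscle cells and 16 in pericytes, and Pparg, the regulator of adipogenesis, 15 and 15. The cold-inducible RNA-binding genes Rbm3 and Cirbp had 21 and 4 UMIs in cold, 19 and 2 in CL and 49 and 14 in saline mural cells. Among angiogenic signals Angpt1, the ligand of the endothelial receptor TIE2, had 13 UMIs in smooth muscle cells and 10 in pericytes (−0.05), and Vegfa 3 and 17. Proliferation genes of G2 and M phase had 1 UMI in each library.

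Markers of several other cell types were rare in the mural cells, and those of adipocytes, endothelial cells and stromal progenitors were not. The adipocyte list, which holds Fabp4, stood at 19288, 6992 and 5056 CPM in cold, CL and saline mural cells, and the endothelial list at 1232, 1173 and 417 CPM. The stromal progenitor list stood above the endothelial list in each library, at 1777, 1422 and 2159 CPM. It had 111, 97 and 404 UMIs, and 238 of the saline ones, 69 of Dcn among them, were in 1 smooth muscle cell of 9844 UMIs. The mesothelial list had no UMI and the mammary epithelial list 2, both in cold. Schwann cell genes had 4, 1 and 7 UMIs and skeletal muscle genes 5, 4 and 15 in cold, CL and saline. Immune genes had 14, 17 and 122 UMIs, and 89 of the saline ones were Cd74 in 1 smooth muscle cell. The progenitor gene Pdgfra was found in 2, 0 and 5 mural cells, and haemoglobin and other red cell genes stood at 1873, 748 and 641 CPM, following the order in the endothelial gate (4498, 3762 and 1468 CPM).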

How the data were processed

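Each deposited matrix gives unnormalised UMI counts of genes in barcodes, made by the authors with Cell Ranger 3.0.2, per the file headers, on mm10, per the submitters' processing notes. Aligner settings and cell calling are not given in the sources used here. Coordinates come from GENCODE M21, which holds 28339 of the 28692 Ensembl IDs in the files. Free RNA was not subtracted. Scrublet (scanpy 1.11.5) called 4 cold, 64 CL and 86 saline barcodes as doublets. The calls were tried as an alternative only, since 4 calls in a whole library means that the caller has not worked there.

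The cells, the gene lists and the tests were chosen with earlier results of these data known. UMIs were summed per library and subtype and scaled to CPM, with exact Poisson intervals. Ratios have exact conditional binomial intervals and shares exact Clopper-Pearson intervals, all at 95%. A group at 0 took a floor of 3 counts. The 3 libraries held 19899223 (cold), 29323106 (CL) and 25875379 (saline) UMIs, and the 89 cells 62474, 68223 and 187103. With 1 library per treatment no test was run. Comparison cells were an endothelial gate (at least 3 Pecam1 and Cdh5 UMIs, no Ptprc, under 5 gate UMIs) and Ptprc-positive cells.

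Between libraries the genes named had at least 30 UMIs in the higher library, at most 20% of them in 1 cell and at least 0.5 times the CPM of other cells. They were ranked by the interval bound nearer to 0, with the 12 highest and 12 lowest for each treatment over saline, 6 and 6 for CL over cold, and 15 and 15 for smooth muscle cells over pericytes. The 20 highest ratios of mural cells over the rest, up to 4 members of each list and 25 genes chosen by name were added, and the text gives a selection. Outside this rule, the genes of the chemokine-high barcodes and Aspn, Ednra, Egr1, Fos, Gucy1b3, Hey2, Heyl, Kcna5 and Myocd were chosen after their values were seen. Alternatives covered the gate sum, the mitochondrial limit, the UMI minimum, thinning, the scaling (edgeR 4.0.16 and DESeq2 1.42.0 factors), subtypes apart, each library left out, and cells left out. The split at 10% mitochondrial UMIs, a limit of 25% and the omission of chemokine-high barcodes were added after seeing the data. Promoters were RefSeq windows of GRCm38.p6. The ratio and interval code was tested on simulated data (Python 3.11.15, scipy 1.17.1, numpy 2.4.6, pandas 2.3.3).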

Additional observations from a re-analysis of the deposited data

How the results depend on the processing

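The limits of these values are their numbers of cells: 3 cold smooth muscle cells, 1 library per treatment, and 288 UMIs for a whole list. Genes past 2-fold numbered 266 (cold over saline), 227 (CL over saline), 74 (CL over cold) and 302 (smooth muscle over pericytes), and these counts moved with the UMI minimum by construction, to 877, 849, 359 and 1097 at 10 UMIs, 67, 47, 19 and 78 at 100 UMIs, and 2898, 2747, 2145 and 3236 with at least 1 UMI in each group. With at most 10% mitochondrial UMIs, which keeps fewer cells, they were 95, 90, 33 and 108, the saline mural share was 0.301% (0.749% at 15%), mural cells per 100 endothelial cells in saline 7.08 (17.8 at 15%) and the saline smooth muscle share 41.2%. With a limit of 25% the saline mural share was 1.02%. A gate sum of at least 3 gave 342 (CL over saline), 119 (CL over cold) and 554 (smooth muscle over pericytes). Pericytes alone gave 63, 64 and 20 between libraries, smooth muscle cells alone 46 for CL over cold, leaving out each gene's top cell 39 for CL over cold, and thinning 100 for smooth muscle over pericytes. Without each library in turn that last count lay between 89 (no saline) and 280 (no CL).

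List medians and genes that changed sign were these, and the cause was not tested. The stromal progenitor list in cold over saline (−1.03) was 0.84 with a gate sum of 3 and 0.26 in smooth muscle cells alone, and in smooth muscle over pericytes (1.57) −3.41 with a gate sum of 3. The chemokine list in CL over cold (−2.0) was 1.31 with a gate sum of 3, and in smooth muscle over pericytes (−1.65) 1.48 without the chemokine-high barcodes and between −2.27 (no cold library) and 0.56 (no saline library) with each library left out. The cAMP-response list in smooth muscle over pericytes (1.49) lay between −0.36 without the saline library and 1.98 without the CL library. In pericytes alone, Nr4a2 in cold over saline was 0.57 (−3.72 in all), Adamts1 in CL over saline 0.042 (−2.43 in all) and the contractile list in cold over saline 0.12 (−1.74 in all). Tm4sf1 in CL over cold was −0.24 in smooth muscle cells alone (1.26 in all). Of the other recomputed gene and list ratios, 2766 stayed within the interval of the reported gene ratio or within 0.5 of the reported list median, and 351 moved further. Scaling by edgeR or DESeq2 factors shifted every log2 ratio by at most 0.09. No paired analysis was possible because each treatment had 1 library.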
